A study of Mus musculus with 3 samples.

Results

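The genes described here are 40 genes of the neutrophil and monocyte programme, of 55200 genes that could be followed through all samples. They were chosen by name, not by their values: 8 transcription factors, 5 genes of the primary granules and the early granulocyte stage, 10 genes of the later granules and the mature neutrophil, 2 lysozymes, 4 subunits of the phagocyte NADPH oxidase, 4 Fc gamma receptors and 7 surface or monocyte genes. All 40 were found in the data. The samples were 3 in vitro replicates of Ba/F3, a mouse haematopoietic cell line, which form 1 group with no treatment contrast. They are called cultures here, while the sample titles name them only as replicates. Every culture received recombinant murine IL-3 at 0.2 ng/mL and 10% fetal calf serum, and its polyadenylated RNA was read as 50-base single-end reads. The study concerns the killing of tumour cells by neutrophils with IgA antibodies, and with 1 group the data give which genes this single line carried and how far its cultures differed, which only the spread between these samples measures.

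Neutrophils and monocytes arise from a common progenitor under the control of the ETS factor PU.1, encoded by Spi1, and of the C/EBP family. C/EBPα starts granulocyte development and C/EBPε drives the later step in which the secondary granules are made. Primary granules, filled with myeloperoxidase and serine proteases, are made first, at the promyelocyte stage. The NADPH oxidase, which makes superoxide in the phagosome, and the Fc gamma receptors, which bind IgG, complete the equipment for killing.

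The cultures gave 32044889, 33880292 and 37180883 reads assigned to genes. Levels are in CPM, the reads of a gene per 1000000 reads of its culture. For comparisons between genes they are also given per length, in TPM, as reads per base of annotated exon scaled so that all genes sum to 1000000. A single read was worth 0.0312, 0.0295 and 0.0269 CPM in cultures 1, 2 and 3, so 3 reads, the most that a count of 0 allows by counting error alone, stood for 0.0936, 0.0885 and 0.0807 CPM. A gene was called detected at 1 CPM or more in each culture. Mitochondrial genes took 1.68%, 1.31% and 1.04% of the reads of cultures 1, 2 and 3. In these bulk samples, fewer cells that carry a transcript and less of it per cell cannot be told apart.

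Of the 40 genes, 18 were detected (45.0%). The background was 45.9% of 21960 protein-coding genes and 19.9% of all 55200 genes, so the share of the programme that was detected was close to that of protein-coding genes in general. Another 6 genes (Elane, Fcgr1, Ltf, Fcnb, Ctss and Lcn2) lay under the threshold, with 45 to 88 reads over all cultures. A further 9 had between 1 and 15 reads in all. The last 7, which are Cebpa, Gfi1, Klf4, Ctsg, Camp, Mmp8 and Ly6c2, had no read in any culture, beside 34.6% of protein-coding genes. The label of the list is therefore borne out only in part, since each of the 7 functional groups held both detected and undetected genes. The detected genes had a median of 94.0 ± 0.614 TPM (SD of the medians, n = 3), against 30.2 ± 0.360 TPM over all 10991 detected genes. That median describes only the genes that passed the threshold and moves with it: it was 55.1 TPM over 20 genes at 0.5 CPM, against 27.1 TPM over all genes past that threshold, and 175 TPM over 15 genes at 5 CPM, against 36.4 TPM.

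**Figure D1:**
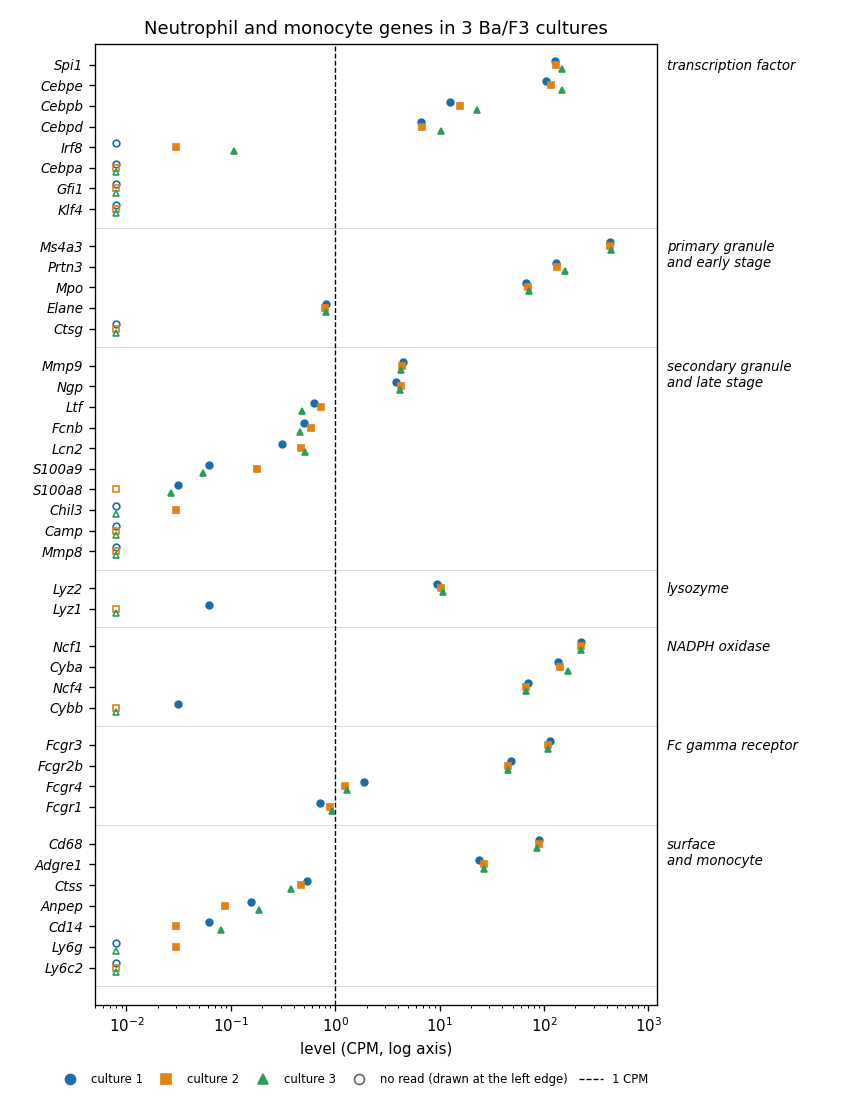
Level of each of the 40 genes in CPM (log axis) in cultures 1, 2 and 3 (circles, squares, triangles), grouped by role, with the 1 CPM threshold as a dashed line and open symbols at the left edge where a culture had no read. In each role detected genes stand beside genes under the threshold, for example Ncf1 at 225 CPM beside Cybb with 1 read in all.

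The order per length ran from Ms4a3, Cyba, Cebpe and Prtn3 through Cd68, Fcgr3, Ncf1, Spi1, Ncf4 and Mpo to Cebpb, Fcgr2b, Adgre1, Lyz2, Ngp, Cebpd, Mmp9 and Fcgr4. The ranges over the cultures overlapped between neighbours in 5 places, namely Cebpe with Prtn3, Cebpb with Fcgr2b, Fcgr2b with Adgre1, Adgre1 with Lyz2, and Mmp9 with Fcgr4, so the order of those pairs is not resolved. The other neighbours did not overlap, but the order also depends on the length used, here all annotated exons. The longest transcript is much shorter for Fcgr3 (1347 against 1736 bases) and Ncf1 (2882 against 3663), but hardly for Cd68 (1230 against 1257). With that length both would stand above Cd68. Prtn3 (1025 against 1732 bases) would likewise stand above Cebpe (1241 in both).

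Promoter windows of 4 genes are printed here because they belong to partner genes whose levels lay far apart. Prtn3 and Elane are neighbouring protease genes on 1 strand, 3072 bases apart, and Cyba and Cybb encode the 2 chains of the oxidase's membrane core. Each window covers 250 bases before and 50 bases after the gene's start (RefSeq, GRCm38.p6; for Prtn3, Elane and Cybb this start lies inside the longer gene span of GENCODE used for counting), written 5′ to 3′ on the gene's strand. Capitals mark the motif GAGGAA, the purine box bound by PU.1, on either strand.
Prtn3 (chr10:79879417-79879716, plus strand): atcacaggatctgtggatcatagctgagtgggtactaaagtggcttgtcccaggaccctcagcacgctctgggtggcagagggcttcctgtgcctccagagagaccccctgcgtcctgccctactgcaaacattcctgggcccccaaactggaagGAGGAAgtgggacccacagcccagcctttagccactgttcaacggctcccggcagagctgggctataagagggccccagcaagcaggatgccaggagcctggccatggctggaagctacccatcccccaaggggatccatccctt
Elane (chr10:79886062-79886361, plus strand): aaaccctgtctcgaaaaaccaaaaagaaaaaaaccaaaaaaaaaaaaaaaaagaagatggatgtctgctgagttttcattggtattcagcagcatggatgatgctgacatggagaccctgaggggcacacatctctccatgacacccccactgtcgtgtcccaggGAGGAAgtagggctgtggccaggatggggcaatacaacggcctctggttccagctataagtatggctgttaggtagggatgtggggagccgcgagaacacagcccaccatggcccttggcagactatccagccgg
Cyba (chr8:122432891-122433190, minus strand): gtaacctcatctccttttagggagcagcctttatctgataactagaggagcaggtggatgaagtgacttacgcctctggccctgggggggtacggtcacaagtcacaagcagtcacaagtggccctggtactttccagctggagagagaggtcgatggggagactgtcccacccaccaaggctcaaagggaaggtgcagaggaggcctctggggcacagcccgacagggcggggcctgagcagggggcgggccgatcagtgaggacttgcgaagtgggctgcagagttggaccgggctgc
Cybb (chrX:9469275-9469574, minus strand): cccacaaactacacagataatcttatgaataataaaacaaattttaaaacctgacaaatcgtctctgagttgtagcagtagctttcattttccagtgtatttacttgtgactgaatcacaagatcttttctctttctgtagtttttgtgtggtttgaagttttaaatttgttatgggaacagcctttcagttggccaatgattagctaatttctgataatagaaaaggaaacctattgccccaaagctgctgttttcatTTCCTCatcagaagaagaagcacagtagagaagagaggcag
The Prtn3 window holds the motif once, 95 to 90 bases before the start, and the Elane window holds it once, 85 to 80 bases before the start, both on the gene's own strand. The Cybb window holds it on the opposite strand at bases 10 to 15 after the start, and in the Cyba window these letters do not occur. A second motif, TTNNGNAA for the C/EBP family, occurs in none of the 4 windows on either strand, so no overlap of the motifs arises. Windows were on hand for 33 of the 40 genes, the others being Spi1, Cebpd, Cebpe, Mmp9, Ncf4, Cd14 and Adgre1. GAGGAA was found in 6 of 12 detected genes and 11 of 21 others, beside 28.3% of 27025 genes with a window. TTNNGNAA was also found in 6 of 12 and 11 of 21, beside 40.7%. Shares were alike in the genes that were detected and in those that were not. A match of letters is a description and not a binding site.

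Among the transcription factors, 4 of 8 were detected. Spi1, the PU.1 gene (chromosome 2, 91082390 to 91115756, plus strand), was read at 127, 129.9 and 150.1 CPM in cultures 1, 2 and 3, averaging 136 ± 12.4 CPM (SD, n = 3) and 175 ± 15.0 TPM. Cebpe (chromosome 14, 54710360 to 54712174, minus strand) was read at 105, 117 and 150.3 CPM, averaging 124 ± 23.5 CPM, and at 348 ± 63.8 TPM it was the highest factor per length, at percentile 96.6 of all detected genes. Cebpb, a factor of monocytes and of emergency granulopoiesis, had 12.5, 15.7 and 22.7 CPM. Cebpd, an inducible relative, had 6.62, 6.76 and 10.3 CPM. Culture 3, with 1 value per gene, was the highest for all 4, and for 10 of the 18 detected genes of the list. The share of all detected genes that were highest in culture 3 was not counted, so nothing is read from these counts. The shares given below, with the test between cultures, cover only genes that differed in that test.

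Cebpa, which encodes the factor that opens the granulocyte path, had no read in any culture. Per length, Cebpe was at least 2384-fold higher than Cebpa and Cebpb at least 234-fold higher, taking 3 reads per culture as the limit for Cebpa and the culture with the lowest bound. The neighbour of Cebpa, Cebpg, a family member without a transactivation domain that lies 62719 bases from it, had 76.3 ± 2.40 CPM. Irf8, the factor of monocyte and dendritic cell fate, had 0, 1 and 4 reads, and Spi1 was 7364 times as high per length (exact 95% interval 3155 to 22683 from summed reads). Klf4, a monocyte factor, and Gfi1, a repressor needed for neutrophils, had no read. Gfi1b, the erythroid and megakaryocytic paralogue of Gfi1, stood at 74.1 ± 2.93 CPM.

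Of 14 other factors of blood development that were looked up beside these, 8 were detected. Cbfb (172 TPM), Gfi1b (141) and Myb (121) led per length, and Runx1 stood at 45.2 TPM. Maf, which acts in macrophages, and Klf2 had no read, Irf4 had 2 reads and Egr1 6, while Egr2 stood at 13.2 ± 2.05 CPM and Irf5, a macrophage factor, at 28.7 ± 0.735 CPM.

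Of the 5 primary granule genes, 3 were detected. Ms4a3, a membrane protein gene that marks granulocyte and monocyte progenitors in mouse (chromosome 19, minus strand), stood at 431, 433 and 435 CPM and was the highest of the 40 genes, at 799.8 ± 3.63 TPM and percentile 98.7 of detected genes. Mpo, the myeloperoxidase gene (chromosome 11, 87793581 to 87804413, plus strand), had 67.7, 70.2 and 71.7 CPM. Prtn3, the proteinase 3 gene (chromosome 10, 79874476 to 79883174, plus strand), had 130.0, 132 and 159 CPM. The cultures lay close together for Ms4a3 and Mpo, while culture 3 stood above the others for Prtn3. Its neighbour Elane, the neutrophil elastase gene (79886247 to 79888215), had 0.811, 0.797 and 0.807 CPM, or 26, 27 and 30 reads, all under the threshold. Both proteases are stored in the same granules. Prtn3 was 99.1 ± 11.4 times as high as Elane per length. With the longest transcript of each gene in place of all annotated exons that ratio was 168. Ctsg, the cathepsin G gene (chromosome 14), which belongs to the same protease family, had no read.

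The next gene beyond Elane, Cfd, which encodes complement factor D, had no read, and Ptbp1 on the other side of Prtn3 had 434 ± 5.77 CPM. Lpo, the peroxidase gene 2014 bases from Mpo, averaged 0.00897 CPM. Around all 18 detected genes, 23 of 36 nearest protein-coding neighbours were detected (63.9%), and around the other 22 genes, 15 of 44 (34.1%). Over all protein-coding genes the share was 45.9%. Several neighbours are themselves on the list, and with those left out the counts were 19 of 30 and 13 of 38. Some of the rest are relatives of the gene beside them, such as Mmp10 and Mmp27 beside Mmp8, all with no read. The contrast between the counts was not tested.

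Of 8 genes that package, process or inhibit the granule enzymes, 7 were detected. Srgn, the serglycin core protein that holds the proteases, stood at 2625 TPM, Lamp1 at 518, and Ctsc, which encodes the dipeptidyl peptidase that activates the serine proteases, at 253. Cst7, an inhibitor of that enzyme, had 111 TPM. Serpinb1a, an inhibitor of the neutrophil proteases, had 27, 20 and 32 reads and was not detected.

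Genes of the later granules were nearly all low. Of 10 genes, 2 were detected, and the 10 together summed to 9.80, 10.6 and 9.95 CPM in cultures 1, 2 and 3. Mmp9, the gelatinase B gene, had 4.46, 4.34 and 4.25 CPM, and Ngp, a neutrophilic granule protein gene of the cathelicidin-like family, had 3.81, 4.28 and 4.17 CPM. Ltf (lactoferrin), Lcn2 (lipocalin 2, which binds bacterial siderophores) and Fcnb (ficolin B, a lectin of complement) had means of 0.615 ± 0.127, 0.432 ± 0.105 and 0.516 ± 0.0680 CPM. S100a8 and S100a9, whose calcium-binding products form calprotectin and fill the cytoplasm of neutrophils, had 2 and 10 reads in all, an S100a9 level per length of 6.65 times that of S100a8 (exact 95% interval 1.42 to 62.4). Chil3 had 1 read, and Camp (cathelicidin) and Mmp8 (neutrophil collagenase) none. Per length, the highest of these 10 genes was Ngp at 11.6 ± 0.706 TPM, in the same cultures where Cebpe, the factor of this stage, had 348 TPM.

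Of the lysozymes, Lyz2, the myeloid gene, had 9.42, 10.3 and 10.8 CPM, and Lyz1, the Paneth cell gene beside it, had 2, 0 and 0 reads. Lyz2 was 506 times as high per length (exact 95% interval 139.8 to 4186 from summed reads). The transcripts share 15.4% of the 50-base words of Lyz2 and 16.1% of those of Lyz1, so part of the reads of either could not be assigned to 1 of them.

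Of the 4 oxidase genes all but the catalytic chain were detected. Cyba, the p22phox chain (chromosome 8, 122424776 to 122432930, minus strand), had 137, 143 and 168 CPM. Ncf1, the organiser p47phox (chromosome 5), had 224, 224 and 228 CPM. Ncf4, the p40phox gene (chromosome 15), had 69.6, 67.1 and 66.8 CPM. Culture 3 stood above the others for Cyba, and the cultures lay close together for Ncf1 and Ncf4. Per length, Ncf1 stood at 0.430 ± 0.0405 of the level of Cyba. Cybb, the gp91phox gene that carries the haem and flavin groups of the enzyme (chromosome X, 9435252 to 9487771, minus strand), had 1 read in culture 1 and none in cultures 2 and 3. Relative to Cyba per length it stood at 1.15e-05 (exact 95% interval 2.92e-07 to 6.44e-05 from summed reads). None of the 50-base words of Cybb occurs in an annotated transcript of another gene.

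Partners of these genes were detected as well. Rac2, the GTPase of blood cells, had 515 ± 8.99 CPM, Rac1 314 ± 9.03, and Cybc1, the chaperone of the membrane core, 106 ± 3.08 CPM. No other catalytic chain was detected: Nox1 had 35 reads in all, and Nox3, Nox4, Duox1 and Duox2 had none.

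**Figure D2:**
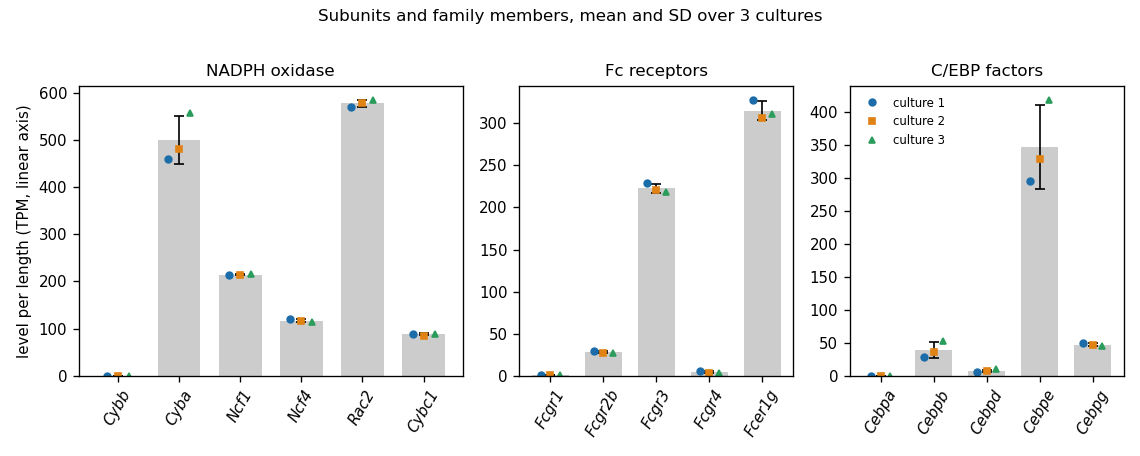
Level per length (TPM, linear axis) of the NADPH oxidase subunits, the Fc receptors with their signalling chain and the C/EBP factors; bars are means over 3 cultures, whiskers 1 SD, and points the cultures. Cybb, Fcgr1 and Cebpa lie at or near 0 beside relatives such as Cyba at 500.3 TPM, Fcgr3 at 223 and Cebpe at 348.

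Of the Fc gamma receptors, 3 of 4 were detected. Fcgr3, the activating low-affinity receptor (chromosome 1, 171051174 to 171064935, minus strand), had 114, 109.7 and 109.7 CPM. Fcgr2b, the inhibitory receptor, had 48.2, 45.4 and 45.6 CPM. Fcgr4, an activating receptor of mouse monocytes and neutrophils whose gene lies between them, had 1.87, 1.24 and 1.29 CPM, just over the threshold. Culture 1 was the highest for all 3 detected receptors, without a difference beyond counting noise. Fcgr1, the high-affinity receptor on chromosome 3, had 0.718, 0.885 and 0.941 CPM and stayed under the threshold in each culture. Per length, Fcgr3 was 7.99 ± 0.0892 times as high as Fcgr2b and 56.5 ± 10.9 times as high as Fcgr4. Fcgr3 and Fcgr2b share 9.58% of the 50-base words of Fcgr3, so the split of those reads is uncertain.

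The activating receptors reach the surface and signal through the common γ chain, encoded by Fcer1g, which stood at 315 ± 11.5 TPM. Among 8 partners looked up, 5 were detected. These were Fcer1g, the kinase genes Syk (159 ± 7.96 CPM) and Lyn (109 ± 1.88) and the phosphatase genes Inpp5d (232 ± 3.61), which acts downstream of the inhibitory receptor, and Ptpn6 (185 ± 6.10). The myeloid kinase gene Fgr had 1 read.

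Of the surface and monocyte genes, 2 of 7 were detected. Cd68, a lysosomal glycoprotein gene of macrophages, had 88.8, 89.6 and 86.5 CPM, and Adgre1, which encodes the F4/80 antigen of mouse macrophages and eosinophils, had 24.0, 26.9 and 26.5 CPM. Ctss, a lysosomal protease gene, averaged 0.460 ± 0.0777 CPM, Anpep (CD13) had 15 reads in all and Cd14, the co-receptor for lipopolysaccharide, 6. The Ly6 antigens by which mouse neutrophils and monocytes are told apart were at or near 0. Ly6g had 1 read and Ly6c2 none, the words of Ly6c2 being shared to 14.5%, mostly with Ly6c1. Ly6c1, Ly6i and Ly6f of the same chromosome 15 family had none either, while Ly6e of that family had 4231 ± 96.7 CPM.

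Of 15 further surface genes of these cells, 7 were detected. Itgb2 (340.1 TPM), Cxcr4 (335) and Itgam (81.9) led per length, the first and last of which encode the chains of the integrin Mac-1. The receptors that guide mature cells were low: Fpr1, Fpr2 and Cx3cr1 had no read, Ccr2 had 4 reads and Cxcr2 averaged 0.375 ± 0.186 CPM. Of 6 myeloid growth factor receptor genes, 4 were detected. Csf2rb, the β chain shared by the receptors for GM-CSF, IL-3 and IL-5, led per length at 345 ± 12.2 TPM, and Il3ra stood at 36.8 ± 7.22 TPM. Csf1r had 1.15 ± 0.119 TPM and Csf2ra 1.97 ± 0.498 TPM, while Flt3 had 1 read and Csf3r, the receptor for G-CSF, none.

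The levels of other blood lineages were set beside these. The peroxidase of eosinophils, Epx, a paralogue of Mpo on the same chromosome, stood at 2249.8 ± 40.5 TPM, beside 71.0 ± 1.85 TPM for Mpo. Of 9 eosinophil genes, 5 were detected, with Prg2, the major basic protein gene, at 854 TPM. The 40 neutrophil and monocyte genes summed to 1610.0, 1635 and 1754 CPM in cultures 1, 2 and 3. The eosinophil genes summed to 1950.0, 1992 and 2031 CPM, of which Epx gave 1730.4, 1769.7 and 1808. The 8 erythroid genes, 5 of them detected, summed to 256, 282 and 281 CPM. Of this Hba-a1 gave 167, 191 and 189 CPM and Gata1 67.5, 66.7 and 65.9. The 10 mast cell and basophil genes, 2 of them detected, summed to 605, 615 and 646 CPM, of which Gata2 gave 598, 609 and 641. For the 6 megakaryocyte genes the sums were 609.5, 531 and 584 CPM, of which Itga2b gave 606, 528 and 580.2. Ear1, Ear2, Fcer1a, Mcpt8 and Alas2 had no read, and Il5ra had 1. Ba/F3 is commonly described as a pro-B line, and of 10 B lineage genes 2 were detected, Cd79b at 19.5 ± 1.22 CPM and Cd79a at 1.75 ± 0.118, while Ebf1, Igll1, Rag1, Rag2 and Blnk had no read. Of 6 megakaryocyte genes 2, of 7 T and NK cell genes 2 and of 5 dendritic cell genes 0 were detected. These lists differ in length and in how they were chosen, and their part in the levels of the 40 genes was not tested.

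**Figure D3:**
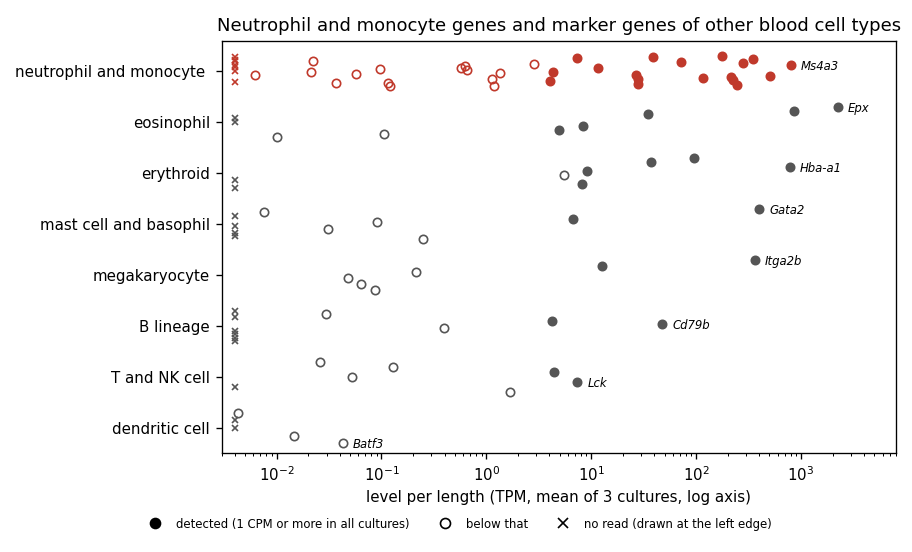
Level per length (TPM, mean of 3 cultures, log axis) of the 40 genes, in red, above the marker genes of 7 other blood cell types, in grey; filled circles were detected, open circles were not, and crosses at the left edge had no read. Epx at 2249.8 TPM lies above Ms4a3 at 799.8, the highest of the 40, and each list holds genes near 0.

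Differences between the cultures were tested gene by gene with a chi-square test against Poisson counting noise, where the cultures averaged 10 reads or more, with Benjamini-Hochberg adjustment over all 13140 genes tested. The test asks whether the libraries differ beyond counting noise and says nothing of conditions. Of the 24 genes on the list that could be tested, 6 differed at an adjusted p under 0.05 (25.0%), beside a background of 32.8% of all genes tested. Which share was the larger depended on the setting, since 6 of 24 stood beside 11.1% of all genes without culture 1 and beside 13% with Bonferroni adjustment, and nothing is read from it about the list. The 6 were Spi1, Cebpb, Cebpd, Cebpe, Prtn3 and Cyba, and all 6 were highest in culture 3. Over all genes tested, 10.2% differed and were highest in culture 3, which is 31.0% of the genes that differed.

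All 4 detected transcription factors were among the 6. Cebpb was 1.61 times as high in culture 3 as in the mean of cultures 1 and 2 (chi-square adjusted p = 3.81e-23), Cebpd 1.54 times (3.33e-08), Cebpe 1.36 times (3.84e-66) and Spi1 1.17 times (7.42e-17). Prtn3 was 1.22 times as high (chi-square adjusted p = 1.89e-28) and Cyba 1.20 times (1.35e-25). Between the highest and the lowest culture, Cebpb differed by 1.82 times, a ratio that 0.830% of the 10126 genes with a mean of at least 100 reads exceeded. For Cebpd that share was 2.37%, for Cebpe 4.43%, for Prtn3 14.6%, for Cyba 15.0% and for Spi1 20.4%. The median ratio over those 10126 genes was 1.08, and over the 17 genes of the list with that depth 1.12. Genes looked up beside the list did not share 1 direction. Of the growth factor receptor genes 2 differed, and 1 of them was highest in culture 3. That was Il3ra, the α chain of the IL-3 receptor, with 28.2, 27.3 and 38.7 CPM. Its partner chain gene Csf2rb was lowest there, with 741, 725 and 698 CPM. Of the other factors of blood development 4 differed, and 1 of them was highest in culture 3.

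The values of culture 3 were assigned to genes by another key of the deposited rows than those of cultures 1 and 2. Joining them by symbol alone gave the same 6 genes, but coordinates and symbol named the same gene for all 40. Their reads were therefore unchanged, and this join does not test the key. The calls of Spi1, Cebpd, Prtn3 and Cyba rested on culture 3, since without it only Cebpb and Cebpe differed, between cultures 1 and 2. Culture 3 also had the deepest library and the lowest mitochondrial share, and the part of either in these differences was not tested. Part of the exons of Cebpb (20.7%) lies opposite Tmem189, and part of those of Cebpd (15.0%) opposite Spidr, and whether counting used the strand is not given in the sources used here. Over the whole gene, Tmem189 stood at 53.6, 54.1 and 54.1 CPM, and Spidr at 114, 115 and 108 CPM. Reads of the overlapping stretches were not separated, and the part of such overlaps in these differences was not tested. Plppr3, which overlaps 9.18% of the Prtn3 exons from the other strand, had 22.4, 18.5 and 21.6 CPM. Mpo lies partly opposite Gm11505, which had 1 read, and Ncf1 opposite Gtf2ird2, at 12.8 ± 0.977 CPM.

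Other genes of the list were level across the cultures. Ms4a3 had a ratio of 1.01 between the highest and the lowest culture, which 99.1% of the genes with that depth exceeded, and Ncf1 a ratio of 1.02, which 96.1% exceeded. Their coefficients of variation, 0.385% and 0.922%, were at or below those of counting noise, 0.820% and 1.14%. Fcgr4 had a ratio of 1.51 with 60, 42 and 48 reads, and the test did not separate its cultures (chi-square adjusted p = 0.142). For genes of so few reads a missing call does not show that the cultures were alike.

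**Figure D4:**
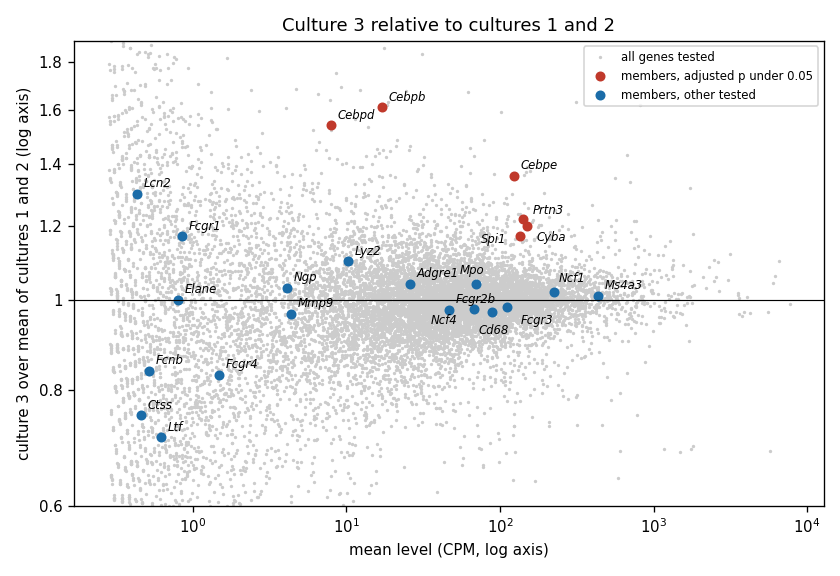
Level in culture 3 over the mean of cultures 1 and 2 (log axis) against the mean level in CPM (log axis) for the 13140 genes tested (grey) and the 24 tested genes of the list (red where the chi-square adjusted p was under 0.05, blue otherwise); 365 genes fall outside the ratios of 0.6 to 1.9 shown. The 6 red genes lie between 1.17 for Spi1 and 1.61 for Cebpb, while Ms4a3 and Ncf1 lie near 1.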

How the data were processed

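The authors mapped the reads to GRCm38 with HISAT2 and counted them per gene with GenSum, per the series' design text. Versions, annotation release, strand setting and the handling of multiple matches were not given in the sources used here. Deposited values are log2, namely log2(reads per 10000000 + 1). Undoing the log and dividing by the value of 1 read gave whole reads for 100% of entries (tolerance 0.01), with totals of 32044889, 33880292 and 37180883.

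In each of the 23001 rows with reads, identifier and symbol belonged to different genes. Cultures 1 and 2 were read by identifier and culture 3 by the symbol side of the row, through exact coordinates in GENCODE M21 (GRCm38; 54896 rows) or a symbol naming 1 gene (333 rows); 257 rows stayed unmatched, leaving 55200 joined genes. For all 40 genes, coordinates and symbol named the same gene. Above 1000 CPM, the median absolute log2 ratio of culture 3 to the other cultures' mean was 0.0600 when joined and 1.32 on the rows as deposited. The deposited rows run in order of level, so at lower levels rows pair genes of like level and this check does not discriminate. The authors' average mixes genes and was not used for levels.

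CPM used the column totals and TPM the exon-union length of each gene. Detection was 1 CPM or more in all 3 cultures. Heterogeneity between cultures was tested by chi-square with 2 degrees of freedom on reads, for a mean of at least 10 reads, with Benjamini-Hochberg adjustment (0.05). Ratios between genes are means over cultures; with 1 to 20 reads, summed reads were used with an exact Clopper-Pearson 95% interval, and with none, 3 reads per culture as a bound. Reads carry no molecular identifiers, so intervals cover counting error only. Shared 50-base words were counted exactly, on both strands, in GENCODE M21 transcripts. The test was tried on simulated Poisson reads, and the join on the deposited rows in shuffled order. The shuffle shows only that the lookup does not depend on row order, not which side of a row culture 3 belongs to. Every gene of the list is named; from the other lists, the highest per length and partners in a complex are. Further genes of those lists, such as Il3ra, Egr2 and those with no read, were named after their values were seen, and a few genes of them are not reported here. The members, lists and tests were chosen with earlier results of these data known. Alternatives were other detection thresholds, scalings, joins, lengths and read minimums, and leaving out each culture. Python 3.11.15, NumPy 2.4.6, pandas 2.3.3 and SciPy 1.17.1 were used.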

Additional observations from a re-analysis of the deposited data

How the results depend on the processing

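The count of 18 detected genes was the same genes without each culture in turn, under both other scalings, both other joins and with detection in at least 1 culture. It was 20 at 0.5 CPM (Elane and Fcgr1 added), 15 at 5 CPM (Fcgr4, Mmp9 and Ngp lost) and 20 at 1 TPM (Elane and Fcnb added). The join by symbol alone leaves the reads of the 40 genes unchanged, so it could not alter which of them were detected. The rows as deposited pair genes of like level, so that join was unlikely to move a gene across the threshold. Both scalings left the mean levels nearly fixed, so their agreement on detection adds little. The 6 genes that differed between cultures kept that call under each alternative except leaving out culture 3 and the rows as deposited. Leaving out each culture gave 2 to 6 genes: 6 of 24 beside 11.1% of all genes without culture 1, 6 beside 29.5% without culture 2, and 2 (Cebpb and Cebpe) beside 20.2% without culture 3. On the rows as deposited, which mix genes, 7 differed, 3 of them shared, beside 30.3%. Scaling by trimmed means of M values gave 8 (Adgre1 and Mpo added) beside 34.4%, and by the median of ratios 7 (Adgre1 added) beside 34.3%. The other settings kept 6: of 24 beside 32.9% with culture 3 joined by symbol alone and 13% with Bonferroni, of 33 beside 17.0% with no read minimum, and of 17 beside 40.2% at 100 reads. The median level of detected genes, 94.0 TPM, was 95.7 with culture 3 joined by symbol alone, 94.6 on the rows as deposited, 92.6 with the longest transcript, 55.1 for genes at 0.5 CPM or more and 175 for those at 5 CPM or more, the set of genes being different in both last cases. It was 93.7 to 94.3 without each culture. With the longest transcript, Prtn3 over Elane was 168, Fcgr3 over Fcgr2b was 6.31 and Fcgr3 over Fcgr4 72.8. All 36 mean levels recomputed with another scaling stayed within 1 SD. Both scalings shift the cultures against each other and hold their mean nearly fixed. The agreement of the means was therefore largely set in advance and is no check of the levels. No paired analysis was possible because the samples form 1 group. Depth limits the genes with 15 reads or fewer, whose differences between cultures were not detectable.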

Other observations

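On the row that carries the symbol Irf8, the authors' deposited average corresponds to 0.0634 CPM, against 0.0457 CPM for the joined gene, and on the row of Ms4a3 to 409.9 CPM, against 433 CPM. For S100a9 the same values were 0.0721 and 0.0978 CPM. The identifier on the Ms4a3 row is that of Smc4, so the values of cultures 1 and 2 on that row belong to another gene.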
